A study of Homo sapiens with 8 samples.

Results

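Long intergenic non-coding RNAs whose symbol is LINC followed by a number were examined in RNA captured next to the peroxidase APEX2 in HEK293T cells, an established human embryonic kidney line. Members were chosen by their symbol and by a raw count of at least 300 summed over the 4 nuclear libraries, which left 70 of the 60664 genes in the count tables. The tables held 2138 genes with such a symbol, of which 1417 had at least 1 count in a nuclear library. The summed count chose the members, so it is given as a description only: it ran from 306 to 12700 with a median of 602. Just inside the threshold stood LINC01341 with 306 counts, LINC00235 with 309 and LINC02348 with 317, and just outside stood LINC02814 with 291, LINC01003 with 285 and a second identifier carrying the symbol LINC01605 with 284.

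All 8 libraries came from HEK293T cells expressing APEX2, a peroxidase that adds biotin to RNA close to it so that streptavidin can capture that RNA. In 4 libraries APEX2 was sent to the nucleus by a nuclear localisation signal (NLS), and in 4 it sat at the outer mitochondrial membrane (OMM). Each site had 2 labelled libraries and 2 libraries from unlabelled cells that carried the same APEX2 and went through the same capture. Not given in the sources used here are the promoter of APEX2 and whether the cells were 1 clone. NLS libraries, titled ribominus, came from a SMARTer kit for total RNA, and OMM libraries, titled trizol, came from a TruSeq kit that selects polyadenylated RNA. Site and kit therefore cannot be told apart, and levels at NLS and OMM are not compared directly.

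Long non-coding RNAs are transcribed by RNA polymerase II and are often spliced and polyadenylated like mRNAs, but most have no known protein product. Many are spliced slowly, stay near their site of transcription or are degraded in the nucleus, and others are exported and meet ribosomes. A LINC number is a placeholder given to a locus with no better name, so the symbol joins genes with no shared origin or function.

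GENCODE 29 (GRCh38) held 69 of the 70, all but LINC02348. It classed 41 as lincRNA, 12 as processed transcript, 7 as antisense, 5 as transcribed unprocessed pseudogene and 2 as bidirectional promoter lncRNA. LINC02210 was a transcribed unitary pseudogene, and LINC02693 was annotated as protein-coding despite its name. The exons of a member covered a median of 3642 bases (592 to 28876). For 33 of the 69, exons overlapped an exon of another gene. On each strand the largest overlap with a single gene was taken. Added over both strands, it came to a median of 6.54% of exonic bases (0.127 to 90.4). Overlaps with further genes were left out and bases overlapped on both strands count double, so the share is approximate. A strand setting for the counting was not given in the sources used here, so reads within the overlapping bases cannot be assigned with certainty. Members in repeated regions, such as LINC01719 near NBPF10 and LINC02249 near GOLGA8T, could also share reads with copies.

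The last 50 bases of the longest GENCODE 29 transcript are shown for the 4 members that were lower in labelled nuclear RNA and for the 4 with the largest rise, because the OMM kit depends on a poly(A) tail. Capitals mark the poly(A) signal AATAAA or its common variant ATTAAA, and all are written 5′ to 3′ on GRCh38.
LINC01719 (chr1:146061899-146061948, plus strand): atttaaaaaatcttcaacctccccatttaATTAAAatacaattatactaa
LINC02381 (chr12:54132794-54132843, plus strand): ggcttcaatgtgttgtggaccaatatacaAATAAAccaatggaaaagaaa
LINC01618 (chr4:52815415-52815464, plus strand): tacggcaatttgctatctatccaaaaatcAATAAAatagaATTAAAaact
LINC01963 (chr2:216220143-216220192, plus strand): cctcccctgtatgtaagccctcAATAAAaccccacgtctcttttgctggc
LINC02728 (chr11:78423982-78424031, minus strand): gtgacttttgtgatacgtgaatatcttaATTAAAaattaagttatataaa
LINC02249 (chr15:30214491-30214540, plus strand): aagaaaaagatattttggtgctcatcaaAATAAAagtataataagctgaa
LINC01004 (chr7:104982099-104982148, minus strand): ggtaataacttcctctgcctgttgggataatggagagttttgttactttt
LINC00598 (chr13:40079106-40079155, minus strand): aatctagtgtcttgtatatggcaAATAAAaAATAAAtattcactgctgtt

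All 4 members that were lower carried a signal in this window, and of the 4 highest LINC01004 had none. Counting any annotated transcript, 54 of the 69 (78.3%) had AATAAA or ATTAAA on the transcript strand in their last 50 bases, against 85.6% of the genes with at least 300 counts. The share was 40 of 53 among members that were higher at NLS, 4 of 4 among those that were lower and 10 of 12 among the rest.

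The NLS controls totalled 20746393 and 21096586 counts, the labelled NLS libraries 9531568 and 8039176, and the OMM libraries 34705126 to 52421161. Levels are given as CPM, the usual count relative to the total of a library, here after TMM scaling. A floor of 3 counts equals 0.171 to 0.311 CPM in an NLS library and 0.0567 to 0.0847 CPM in an OMM library, and covers counting error only. Replicates varied less at NLS, with a biological coefficient of variation of 0.166, than at OMM, with 0.958. The median ratio of the higher to the lower replicate of a member was 1.31 in NLS controls, 1.14 in labelled NLS libraries, 2.99 in OMM controls and 4.79 in labelled OMM libraries. ACTB and GAPDH, expressed in any cell, and NEFL, NEFM and INA, neuronal genes known in this line, were present in every library. LHX1 and PAX2, renal progenitor genes, were at 0 in 2 and 2 OMM libraries. The summed level of 8 markers of leukocytes, endothelium, fibroblasts and liver was 9.84 to 11.2 CPM in NLS controls, 12.9 to 13.5 in labelled NLS libraries and 7.31 to 34.0 at OMM. Of these 8 markers 0 to 5 were at 0 in an NLS library and 6 to 7 in an OMM library, where PTPRC, PECAM1, CDH5, COL1A2, DCN and ALB were at 0 throughout. CD68 was the marker with the higher level in labelled NLS libraries, at 6.18 and 7.68 CPM against 1.71 and 2.07 CPM, and the part of such cells in the results was not tested.

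The first comparison asked which members were recovered more with nuclear labelling than without it. Most were. The members made up 0.0926% and 0.0862% of the raw control counts, against 0.275% and 0.286% of the raw labelled counts. After TMM scaling their summed level was 1097 and 1046 CPM in the controls and 2311 and 2384 CPM in the labelled libraries. Labelled counts took part in choosing the members, so these sums are a description only. At an adjusted p under 0.05 in edgeR's quasi-likelihood test with Benjamini-Hochberg adjustment over all genes, 54 of the 70 (77.1%) were higher and 4 (5.71%) were lower. The same call was made for 28.8% of all tested genes in the higher direction and for 28.5% in the lower. Among genes with at least 300 counts these shares were 23.9% and 44.5%, and among protein-coding genes of that depth 20.1% and 47.7%. At least 2-fold rises were called for 48 members (68.6%), against 22.4% of all tested genes, 13.4% of those with at least 300 counts and 8.88% of protein-coding genes of that depth. The median log2 fold change of the members was 1.70, with quartiles of 0.68 and 2.64, against 0.14 over all tested genes. That median was -0.36 over protein-coding genes with at least 300 counts. With libraries scaled by their size alone it was 0.16, and 38.4% of these coding genes were then called higher and 26.9% lower. Scaling by size alone raised the median of all tested genes by 0.52, and the members then stood 1.56 above it, against 1.57 under TMM scaling.

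The membership rule bears on these counts. For 22 members the controls held under 150 counts in sum, so that they passed largely through the labelled libraries, and all 22 were higher. Among the 31 members with at least 300 counts in the controls alone, 19 were higher and 4 lower. The share of all genes called under that same rule is not given here, so these counts have no background beside them. Both labelled libraries lay above both controls for 59 members (84.3%), against 45.1% of all tested genes, 32.1% of those with at least 300 counts and 28.3% of protein-coding genes of that depth. They lay below both controls for 6, against 37.7%, 54.0% and 57.6%. The arms overlapped for LINC00632, LINC00665, LINC00863, LINC00888 and LINC01694.

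**Figure D1:**
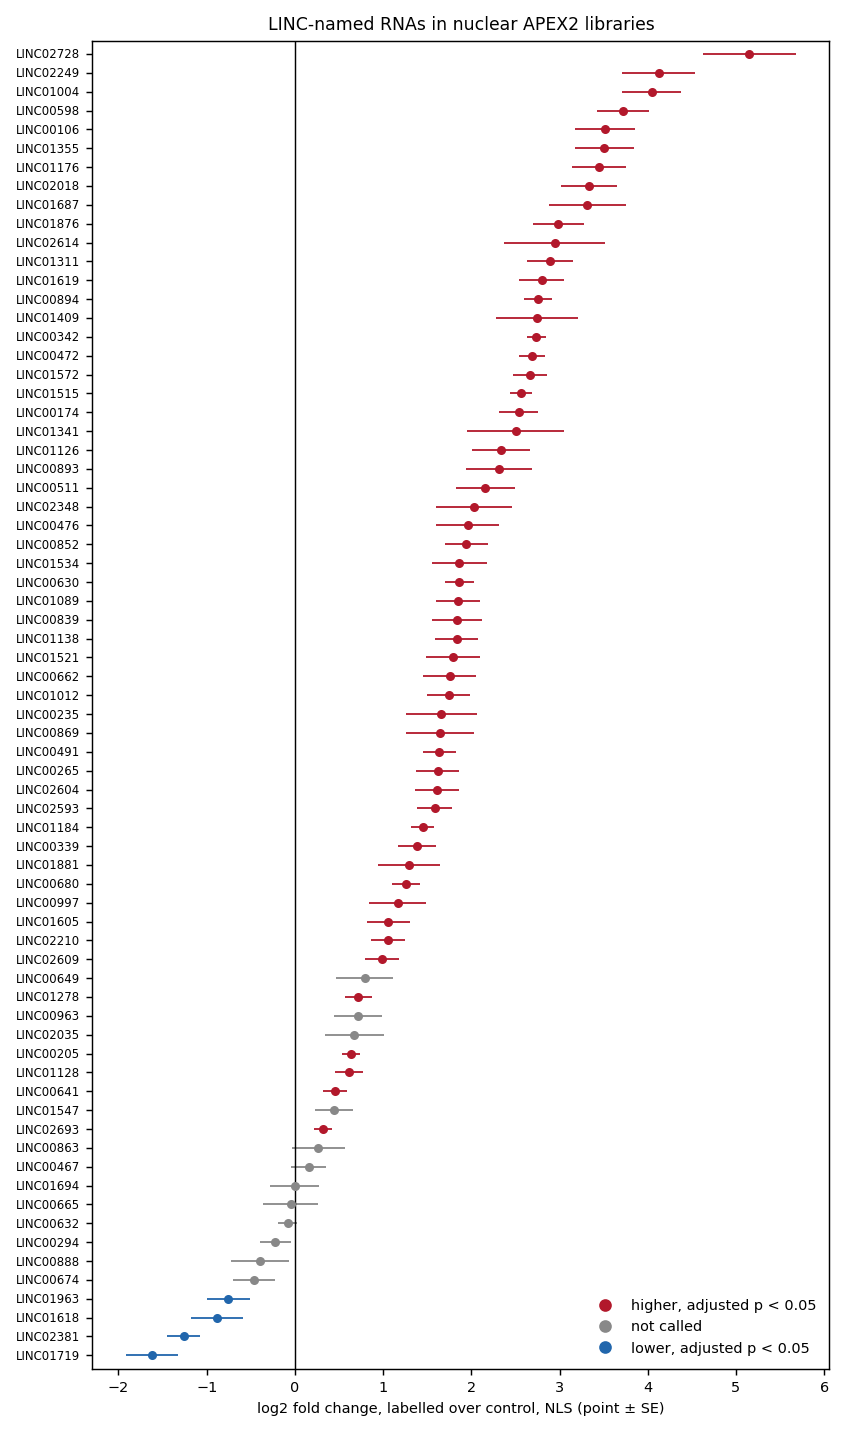
Log2 fold change of labelled over control at NLS for each of the 70 LINC-named RNAs (points, with bars of 1 SE; edgeR fit of 2 labelled and 2 control libraries), coloured by call at an adjusted p of 0.05. The members run from -1.62 for LINC01719 to 5.15 for LINC02728, with 54 higher, 4 lower and 12 not called.

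LINC02728, a spliced lincRNA on chromosome 11 (chr11:78423982-78429836, minus strand) near GAB2, rose the most. It measured 0.171 and 0.691 CPM in the controls and 12.9 and 18.4 CPM in the labelled libraries, a log2 fold change of 5.15 ± 0.53 (SE, edgeR adjusted p = 0.000114). The first control value equals 3 counts, so the size of this rise rests on a control level near the floor, and leaving out either control moved it, to 4.47 for library 1 and to 6.42 for library 3. LINC02249 (chr15:30195809-30217552) measured 0.685 and 1.96 CPM in the controls and 24.4 and 21.9 CPM after labelling, a log2 fold change of 4.12 ± 0.41 (5.06 without control library 3). LINC01004, classed as antisense and beside KMT2E (chr7:104950315-105013044), went from 1.60 and 0.921 to 23.2 and 18.6 CPM, a log2 fold change of 4.04 ± 0.34 (edgeR adjusted p = 4.73e-05). In all 3 the labelled libraries lay above both controls.

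The next 5 by fold behaved alike, with labelled libraries far above both controls. LINC00598 went from 1.20 and 1.73 to 19.8 and 18.9 CPM (log2 fold change 3.72 ± 0.30). This gene runs through the FOXO1 locus on the same strand, and 1494 of its exonic bases lie inside that gene, so unspliced FOXO1 RNA could be counted towards it. LINC00106, in the pseudoautosomal region of chromosome X, whose copy on chromosome Y makes its reads uncertain, went from 2.68 and 1.38 to 20.9 and 25.9 CPM (3.52 ± 0.34). LINC01355, near HNRNPR, went from 3.20 and 1.50 to 25.3 and 28.4 CPM (3.51 ± 0.34, and 4.15 without control library 1). These 8 members had 15 to 82 counts summed over the controls and so passed the threshold of 300 only through their labelled libraries. LINC01176 went from 1.43 and 1.27 to 15.5 and 14.0 CPM (3.45 ± 0.31), and all of its 818 exonic bases lie inside AC006978.2 on the same strand. LINC02018 went from 1.49 and 1.55 to 17.6 and 13.2 CPM (3.33 ± 0.32).

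Lower levels after labelling were called for 4 members. LINC02381, a spliced lincRNA on chromosome 12 near SMUG1 (chr12:54126098-54142493), measured 25.7 and 23.8 CPM in the controls and 10.7 and 9.97 CPM in the labelled libraries, a log2 fold change of -1.26 ± 0.19 (edgeR adjusted p = 0.000768). LINC01719, near NBPF10 on chromosome 1 (chr1:146052566-146061948), measured 10.2 and 13.6 against 3.80 and 3.95 CPM, a log2 fold change of -1.62 ± 0.30 (edgeR adjusted p = 0.0023). In both, each labelled library was less than each control by a wide margin. LINC01618, near the retroviral envelope gene ERVMER34-1 (chr4:52789994-52815464), measured 16.0 and 29 against 12.8 and 11.5 CPM (-0.89 ± 0.29, edgeR adjusted p = 0.0317). LINC01963, a single-exon gene near the DNA repair gene XRCC5 (chr2:216217045-216220192), measured 12.2 and 12.9 against 7.07 and 7.79 CPM (-0.76 ± 0.24, edgeR adjusted p = 0.0277). These 2 smaller falls did not overlap between arms, but both lost their call when either labelled library was left out and under scaling by library size alone, where LINC01618 gave -0.36 and LINC01963 gave -0.24. Without control library 3 LINC01618 gave -0.39 and was not called, and DESeq2 did not call LINC01963 (adjusted p = 0.137).

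**Figure D2:**
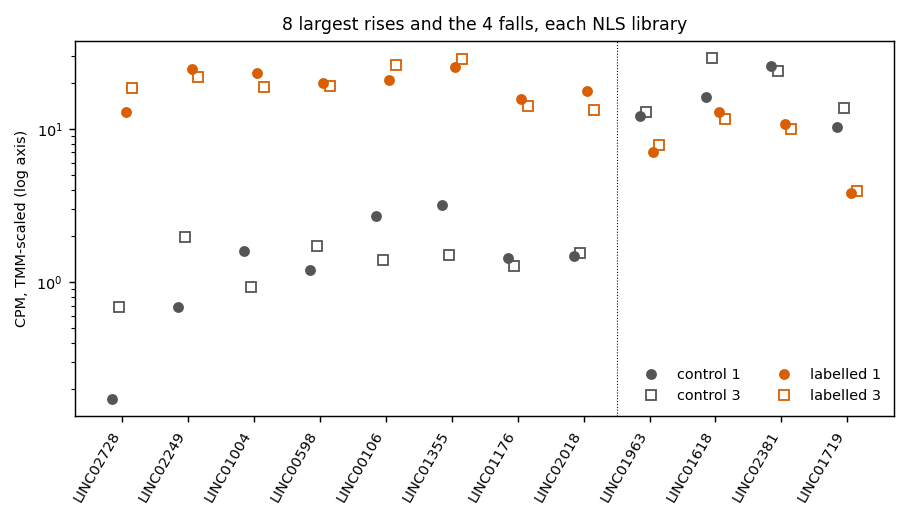
TMM-scaled CPM (log axis) in each of the 4 NLS libraries for the 8 members with the largest rises (left of the dotted line) and the 4 that were lower (right); grey marks are controls and orange marks labelled libraries. In the 8 at left the labelled libraries lie between 12.9 and 28.4 CPM while the controls lie between 0.171 and 3.20 CPM, and in the 4 at right both labelled libraries lie under both controls.

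The members that were most abundant per kilobase of exon in the unlabelled NLS controls differed widely in their response. LINC01618, described above, stood first at 31.0 CPM per kilobase in the controls and 16.7 in the labelled libraries. LINC00674, a short pseudogene-derived transcript whose nearest coding gene is KPNA2, stood second at 17.3 CPM per kilobase. Its 4 libraries measured 13.6, 11.9, 8.57 and 9.86 CPM, controls first, with both labelled libraries lower, but the log2 fold change of -0.47 ± 0.24 was not called (edgeR adjusted p = 0.12). Without control library 3 it was called, at -0.57 (edgeR adjusted p = 0.0181), and under scaling by library size alone it gave 0.050. LINC00641, near HNRNPC, followed at 11.5 CPM per kilobase. It measured 64.2 and 66.7 CPM in the controls and 79.1 and 100.2 CPM in the labelled libraries, a log2 fold change of 0.45 ± 0.13 (edgeR adjusted p = 0.02). LINC02381 held 10.7 CPM per kilobase. LINC00342, near ANKRD36C on chromosome 2, held 8.67 CPM per kilobase in the controls and 57.8 after labelling, the highest labelled density of these 6. Its libraries measured 22.6 and 22.9 CPM against 148 and 154 CPM, a log2 fold change of 2.73 ± 0.11 (edgeR adjusted p = 1.78e-05).

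LINC00632 had the most counts of all members, 12700 over the 4 libraries, and is the host locus of the circular RNA CDR1-AS. It measured 250.2 and 215 CPM in the controls and 216 and 223 CPM in the labelled libraries. Its arms overlapped, and the log2 fold change of -0.08 ± 0.10 was not called (edgeR adjusted p = 0.517). The gene count does not separate the circular from the linear RNA, and 789 of its exonic bases lie opposite CDR1. Scaling by library size alone turned its sign, to 0.43.

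Several members have been studied for a function of their own. LINC00467 and LINC00665 have been reported to encode small proteins. LINC00467 measured 13.1 and 14.1 CPM in the controls and 15.1 and 15.3 CPM in the labelled libraries, and LINC00665 measured 8.63 and 6.04 against 6.62 and 7.58 CPM. Neither was called, with log2 fold changes of 0.16 ± 0.20 and -0.05 ± 0.31 (edgeR adjusted p = 0.523 and 0.906), although scaling by library size alone gave a call for LINC00467 at 0.68 and a positive sign for LINC00665 at 0.47. LINC00472, LINC00511, LINC00662 and LINC01138, known from work on tumour cells, all rose. LINC00472 went from 10.6 and 9.38 to 62.9 and 65.6 CPM (2.69 ± 0.15), LINC00511 from 2.23 and 3.57 to 13.9 and 12 CPM (2.16 ± 0.33), and LINC00662 from 8.74 and 17.9 to 49.0 and 40.7 CPM (1.75 ± 0.30, and 2.36 without control library 3). LINC01138 went from 4.57 and 5.81 to 19.5 and 17.5 CPM (1.83 ± 0.25). None of these 4 overlapped between arms. Of the 3443 exonic bases of LINC00472, 2666 lie inside another gene on the same strand. Near the count threshold, LINC01341 rose by a log2 fold change of 2.50 ± 0.55, LINC02348 by 2.03 ± 0.43 and LINC00235 by 1.66 ± 0.40. LINC01341 gave 3.70 without control library 1 and 1.85 without control library 3, LINC02348 gave 2.75 without control library 3, and LINC00235 lost its call without labelled library 3 (edgeR adjusted p = 0.0905).

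Other long non-coding RNAs were read from the same fit for scale, as counts and medians with no test between classes. Among non-coding RNAs known to be nuclear, such as NEAT1 and FTX, 14 of 16 were higher and 0 lower, with a median log2 fold change of 2.64. TUG1 was not called there, at 0.00 ± 0.13 (edgeR adjusted p = 0.994), nor was HOTTIP. Among those known from the cytoplasm or polysomes, 6 of 12 were higher and 2 lower, with a median of 0.52. NORAD, a cytoplasmic decoy of Pumilio proteins, gave -1.02 ± 0.10. Antisense genes named -AS with at least 300 counts were higher in 107 of 153 and lower in 7 (median 1.54), and microRNA hosts in 15 and 0 of 17 (median 2.52). Divergent transcripts named -DT were higher in 21 and lower in 2 of 32 (median 1.08). The snoRNA hosts named SNHG were higher in 9 and lower in 2 of 20 (median 0.52). The LINC-named members, with a median of 1.70, stood between the nuclear and the cytoplasmic list.

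Members that start beside a coding gene could be set against that neighbour. In 13 cases the member and a tested protein-coding gene on the opposite strand began within 2000 base pairs of each other. The pairs need not be read away from each other. LINC00476, LINC00649, LINC00893 and LINC00894 overlap exons of their neighbours ERCC6L2, ATP5PO, EOLA1 and EOLA2, over 277, 300, 347 and 159 bases. Reads within those bases cannot be assigned with certainty. The promoter windows of 2 members of the 13 pairs are shown, LINC01126 beside ZFP36L2 and LINC01521 beside PATZ1. That of LINC02728, which has no such neighbour, is shown with them. Each runs from 250 bases before to 50 after the RefSeq start (GRCh38.p14) and was chosen so as to overlap no exon of a coding gene. Capitals mark the GC box GGGCGG, the TATA motif TATAAA and their reverse complements.
LINC01126 (chr2:43226961-43227260, plus strand): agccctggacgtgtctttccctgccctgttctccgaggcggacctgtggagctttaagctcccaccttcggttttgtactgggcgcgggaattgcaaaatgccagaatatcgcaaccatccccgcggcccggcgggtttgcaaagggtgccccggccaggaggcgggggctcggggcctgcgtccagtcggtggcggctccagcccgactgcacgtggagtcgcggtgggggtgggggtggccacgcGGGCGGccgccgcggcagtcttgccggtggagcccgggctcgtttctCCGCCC
LINC01521 (chr22:31346509-31346808, plus strand): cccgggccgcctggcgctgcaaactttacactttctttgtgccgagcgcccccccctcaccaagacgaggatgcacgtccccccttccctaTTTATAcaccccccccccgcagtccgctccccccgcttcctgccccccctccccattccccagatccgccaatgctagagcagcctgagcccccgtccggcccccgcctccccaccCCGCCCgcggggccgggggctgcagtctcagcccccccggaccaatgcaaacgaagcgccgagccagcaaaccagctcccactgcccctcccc
LINC02728 (chr11:78429787-78430086, minus strand): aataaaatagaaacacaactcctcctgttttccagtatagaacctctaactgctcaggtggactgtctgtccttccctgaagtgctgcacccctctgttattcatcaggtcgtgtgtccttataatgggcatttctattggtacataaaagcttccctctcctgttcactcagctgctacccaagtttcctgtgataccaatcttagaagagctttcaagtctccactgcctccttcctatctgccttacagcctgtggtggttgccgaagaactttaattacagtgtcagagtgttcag

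The LINC01126 window held 31 CG dinucleotides and 2 GC boxes, that of LINC01521 held 22 CG dinucleotides, 1 GC box and 1 TATA motif, and that of LINC02728 held 2 CG dinucleotides and neither motif. RefSeq gave a promoter for 45 members. For these 1 promoter was kept per member, whereas the 35116 promoters beside them were not reduced to 1 per gene. Some windows lay far from the GENCODE gene start. LINC00598 and LINC01341, both among those that rose at least 4-fold, had windows 54803 and 13604 bases from it. A GC box on either strand was present in 22 of the 45 members (48.9%), against 45.0% of all 35116 promoters, and TATAAA in 8 (17.8%), against 11.5%. The median number of CG dinucleotides was 13 in the members and 14 in all promoters. It was 7 in the 15 members that rose at least 4-fold and 16.5 in the 10 that were lower or not called, a description with no test.

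In 13 of 13 pairs the LINC-named RNA had the higher fold change at NLS. The median was 1.85 for the members and -0.28 for their coding neighbours. Under 150 counts summed over the controls were held by LINC01004, LINC01126, LINC00235, LINC01521 and LINC01534. These passed the threshold of 300 largely through their labelled libraries, whereas no such count chose the neighbours. The order within pairs is therefore a description only. Of the paired members 11 were higher and 0 lower. Among all 70 members 77.1% were higher, against 28.8% of tested genes and 23.9% of those with at least 300 counts. Of the neighbours 3 were higher and 6 lower, against 20.1% and 47.7% of protein-coding genes with at least 300 counts. The widest gap was at KMT2E, a chromatin regulator of the SET family: its mRNA measured 124 and 125 CPM in the controls and 85.7 and 89.5 CPM in the labelled libraries (-0.51 ± 0.10), against 4.04 for LINC01004. ZFP36L2, which encodes an mRNA decay factor, measured 67.4 and 66.1 against 28.8 and 25.7 CPM (-1.29 ± 0.13). On the other side of that promoter LINC01126 measured 2.91 and 2.07 CPM in the controls and 11.1 and 14.1 CPM after labelling (2.33 ± 0.33). In both pairs the coding and the non-coding RNA moved in opposite directions with no overlap between arms.

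Opposite calls were also made at SETD1B, a histone methyltransferase gene (LINC01089 1.85, SETD1B -0.57), and at PATZ1, a zinc-finger regulator gene (LINC01521 1.79, PATZ1 -0.55). The same held at SLC12A2, an ion cotransporter gene (LINC01184 1.45, SLC12A2 -0.58). Of the 4132 exonic bases of LINC01089, 3674 lie inside a gene on the same strand and 1724 overlap exons of the coding gene RHOF. RHOF RNA could therefore be counted towards LINC01089. Under scaling by library size alone the member stayed above its neighbour in 13 of 13 pairs, but only 2 neighbours were called lower, ZFP36L2 and ATP5PO, and KMT2E gave 0.01. The smallest gap was at POFUT2, a fucosyltransferase gene, where LINC00205 gave 0.64 ± 0.10 and POFUT2 0.62 ± 0.14. The other 56 annotated members had a median of 1.63, with 42 higher and 4 lower.

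**Figure D3:**
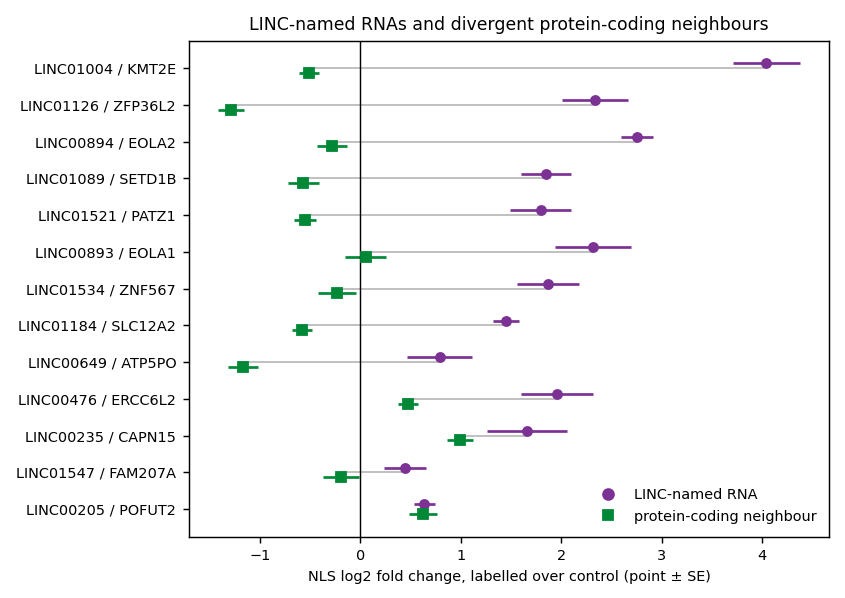
NLS log2 fold change (labelled over control, bars of 1 SE) of 13 LINC-named RNAs (purple circles) and of the protein-coding gene that starts within 2000 base pairs on the opposite strand (green squares). In every pair the circle lies to the right of the square, from a gap of 4.55 at KMT2E to 0.01 at POFUT2.

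Length, exon number and base composition varied little with the fold change among the members. Spearman's correlation with the NLS log2 fold change over the 69 annotated members was -0.13 for exonic length, 0.18 for gene span, 0.16 for exon number and -0.05 for GC content. Over all annotated genes with at least 300 counts the values were 0.29, 0.23, 0.18 and 0.03, so exonic length had the opposite sign. These are descriptions over genes of the same 4 libraries. The 10 single-exon members had a median of 1.64 with 7 higher, and the 59 multi-exon members 1.74 with 46 higher. By annotation class, processed transcripts were higher in 11 of 12, lincRNAs in 31 of 41 and antisense genes in 5 of 7, with medians of 1.61, 1.79 and 2.31. Among all genes with at least 300 counts 23.9% were higher.

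3 motifs were counted on the longest transcript strand. The donor-like GTAAGT occurred in 27.5% of members against 34.6% of the genes with at least 300 counts, CCTCCC in 81.2% against 77.0%, and the Pumilio site TGTANATA in 21.7% against 33.8%. A longer transcript holds a given motif more often. The median exonic length, over all transcripts of a gene, was 3642 bases for the members against 5031 for those genes. Per kilobase of the longest transcript, the median for CCTCCC was 0.963 in members against 0.549, and for GTAAGT it was 0 in both. LINC00632 alone held 10 Pumilio sites in its long transcript.

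The second question was whether the members could be seen at OMM, a measure the membership rule did not use. At least 3 counts in every OMM library were found for 28 of the 70 (40.0%), against 86.5% of genes with at least 300 NLS counts. 7 members (10.0%) had 0 counts in all 4 OMM libraries, against 1.46% of those genes: LINC00106, LINC01126, LINC01619, LINC01687, LINC02018, LINC02614 and LINC02728. A count of 0 allows up to 0.0567 to 0.0847 CPM per library. Another 35 were seen in part, and 39 members had 0 in at least 1 OMM library. Within a group, 0 in 1 replicate but not in the other was found for 19 members in the controls and 13 in the labelled libraries, so a single empty OMM library does not show absence.

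The members seen in every OMM library had the smallest median fold change at NLS. It was 0.70 on the log2 scale, over a range from -1.26 to 2.75, with 18 of 28 higher and 2 lower. For the 35 seen in part it was 1.94, with 29 higher and 2 lower, and for the 7 never seen it was 3.32, with 7 higher and a range from 2.33 to 5.15. The median control level at NLS was 14.0, 4.91 and 2.03 CPM in these groups, and the median labelled level was 21.3, 17.9 and 18.0 CPM. Of the 7 never seen, 6 had under 150 counts in the NLS controls, so the membership rule required a high labelled count of them. The same held for members seen in part, such as LINC02249, LINC01004 and LINC01409. Among those seen in every OMM library it held for LINC01521 only. The order of these medians therefore cannot be separated from the membership rule. Across the 70 members the NLS log2 fold change and the mean OMM level had a Spearman correlation of -0.73, and across all 12647 genes with at least 300 counts it was -0.55; both describe genes of the same libraries, whose levels share depth and length. A poly(A) signal was annotated for 22 of 28, 28 of 34 and 4 of 7 of the members in these groups.

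**Figure D4:**
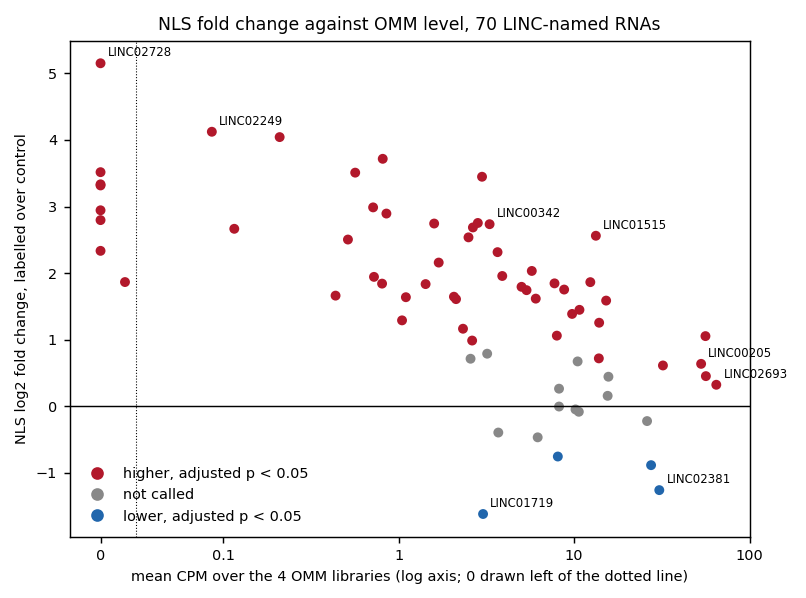
NLS log2 fold change of the 70 LINC-named RNAs against their mean TMM-scaled CPM over the 4 OMM libraries (log axis, with members at 0 drawn left of the dotted line), coloured by the NLS call. The 7 members at 0 lie between 2.33 and 5.15, while the 4 with a mean over 50 CPM at OMM lie between 0.32 and 1.05.

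The members with the highest OMM level were LINC02693, LINC00641, LINC02210, LINC00205, LINC01128 and LINC02381. LINC00205 measured 24.0 and 29.7 CPM in the OMM controls and 91.5 and 66.7 CPM in the labelled OMM libraries, without overlap (log2 fold change 1.56 ± 0.40). It was not called by edgeR (adjusted p = 0.203), and it was called in the authors' deposited table, with a log2 fold change of 1.56 and a p-value of 5.75e-05. The deposited p-values lay nearer to the adjusted than to the unadjusted p of DESeq2 on the same counts, with a median absolute log10 ratio at OMM of 0.0036 against 0.301, and are read here as adjusted. At NLS the same RNA measured 57.8 and 56.1 against 87.2 and 89.9 CPM. LINC02381 was lower after labelling at both sites, at 37.8 and 50 against 19.7 and 14.9 CPM at OMM (-1.35 ± 0.49, edgeR adjusted p = 0.368), where it was not called. In the authors' deposited table its OMM p-value, read as adjusted, was 0.00985.

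LINC02693 measured 80.8 and 27.6 CPM in the OMM controls and 65.7 and 84.5 CPM after labelling, with overlap. LINC00641 measured 50.8 and 32.2 against 70.4 and 72.2 CPM, LINC02210 51.5 and 27.5 against 87.3 and 58.0 CPM, and LINC01128 21.7 and 29.8 against 42.9 and 34.0 CPM. Labelled libraries were above both controls in these last 3, and none was called by edgeR. The share of all genes with OMM arms apart is not given here. Such an order at OMM is therefore a description only, for these as for LINC00205 and LINC02381. LINC02210 shares 15562 of its 15578 exonic bases with the body of LINC02210-CRHR1, a readthrough gene on the same strand. At NLS the 4 rose, by log2 fold changes of 0.32 ± 0.10 for LINC02693, 0.45 ± 0.13 for LINC00641, 1.05 ± 0.19 for LINC02210 and 0.61 ± 0.15 for LINC01128. Without labelled NLS library 3 the calls of LINC02693, LINC00641 and LINC01128 were lost.

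No member was called at OMM by edgeR. Of 52 members tested 0 passed, with 3 at an unadjusted p under 0.05 (LINC00205, LINC01176 and LINC02381), against 0.194% of all genes tested there that were called. DESeq2 called 6, and so did the authors' deposited table, which gave a p-value for 56 members. These were LINC00205 and LINC01176 higher, and LINC00893, LINC00997, LINC01138 and LINC02381 lower. The share of all genes called at OMM by DESeq2 or in that table is not given here. The 6 calls therefore cannot be set against a background, and the 0.194% belongs to edgeR alone. LINC01176 had 0 counts in both OMM controls, against 335 and 204 counts after labelling (edgeR adjusted p = 0.444). LINC00893 had 519 counts in 1 control and 0 in the other 3 libraries, so its call by DESeq2 rests on 1 library.

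The third comparison tested whether the log2 fold change of labelled over control differed between NLS and OMM. The test was the interaction of site and labelling over all 8 libraries. A difference was called for 6 of 70 members, a share near the 8.14% of all tested genes called in either direction. In all 6 the log2 fold change was more positive at NLS, a direction called for 1.41% of all tested genes. The more positive change need not be the larger in size. That fit holds 1 dispersion per gene over both sites although replicates varied more at OMM, and the SE of the difference was smaller than the SE of the OMM effect in its own fit for 6 of 6, none of which was called at OMM alone. With a weight for each site in limma-voom, an alternative chosen after seeing the data, 5 of the 6 were called and no other member (8.50% of all genes). LINC01515, near CTNNA3 on chromosome 10, measured 20.2 and 18.6 CPM in the NLS controls and 119.9 and 109 CPM in the labelled NLS libraries. At OMM it measured 12.7 and 15.8 against 10.0 and 14.7 CPM. It rose at NLS with a wide gap between arms and overlapped at OMM, and the difference of the log2 fold changes was 2.74 ± 0.39 (edgeR adjusted p = 0.0113), or 2.81 ± 0.53 with site weights (limma adjusted p = 0.0197). LINC00894, which starts beside EOLA2 on chromosome X, measured 9.37 and 8.0 against 58.6 and 58.7 CPM at NLS. At OMM it measured 5.06 and 3.22 against 1.51 and 1.52 CPM, the opposite order, and the difference was 4.18 ± 0.62 (edgeR adjusted p = 0.0126). With site weights it was 4.15 ± 1.14 and was not called (limma adjusted p = 0.0675).

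In the other 4 the labelled OMM libraries held 0 counts, or 1 count in a single library, so no fitted difference is given. LINC00491 had 80 and 83 counts in the OMM controls and rose at NLS from 8.05 and 9.38 to 27.2 and 27.1 CPM (edgeR adjusted p of the difference 0.011). LINC01876 had 63 and 44 counts in the OMM controls and rose at NLS from 4.51 and 2.53 to 29.4 and 26.6 CPM (0.0135 by edgeR). LINC01138 had 132 and 81 counts in the OMM controls, against 1 and 0 after labelling (0.0215 by edgeR). LINC00997 had 260 and 93 counts in the OMM controls and rose at NLS from 5.66 and 3.63 to 11 and 9.86 CPM (0.0274 by edgeR), and its NLS rise was not called when either labelled NLS library was left out (edgeR adjusted p = 0.142 and 0.0837). In all 4 the NLS arms were apart in one direction and the OMM arms in the other. The count of 6 fell to 0 when any of the 4 NLS libraries was left out, and ranged from 9 to 17 when an OMM library was left out.

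**Figure D5:**
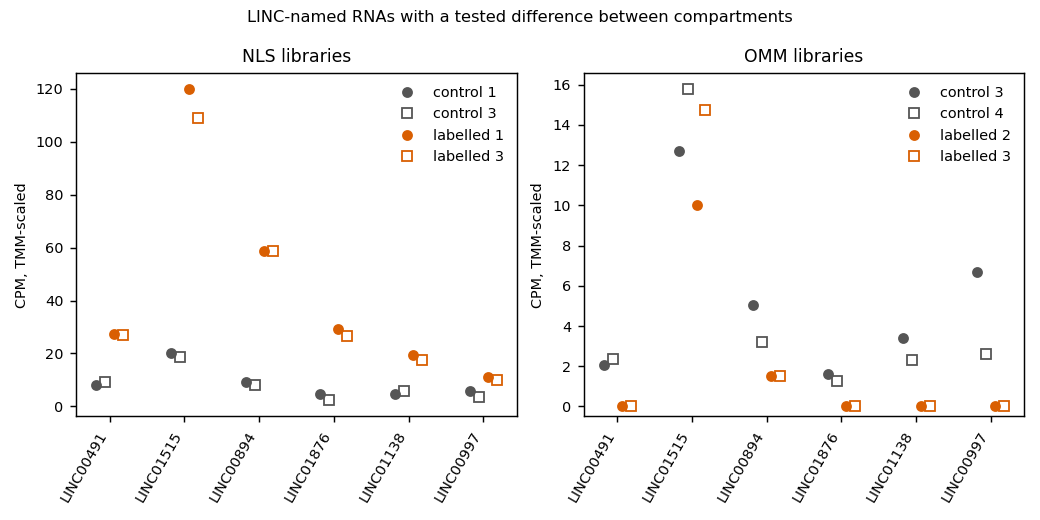
TMM-scaled CPM in each NLS library (left panel) and each OMM library (right panel) for the 6 members with a called difference between sites; grey marks are controls and orange marks labelled libraries, and the panels have separate axes from 0. At NLS every labelled library lies above both controls, and at OMM the labelled libraries lie under both controls for all but LINC01515.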

How the data were processed

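The authors deposited raw read counts per gene for 8 libraries, and for each gene a p-value and a log2 fold change (labelled over control). Per the submitters' processing notes these came from Trimmomatic, STAR, HTSeq, SAMtools, bedtools and DESeq2 on GRCh38.p13 (hg38); no version and no strand setting was given in the sources used here. The series text gives release with Proteinase K (NLS) or TRIzol (OMM), whereas the labels name an RNeasy kit, so that step is not settled. Columns and titles number the libraries differently, so columns were matched to groups only; 4 count columns and 2 comparison columns matched no sample and were not used. Separate cultures are not stated, so the p-values reflect only spread among these libraries, possibly technical.

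The count test was edgeR 4.0.16 in R 4.3.3 (robust quasi-likelihood F test, two-sided, TMM factors, filterByExpr with a minimum count of 10, prior count 0.125). Sites were fitted apart on 20858 (NLS) and 14438 (OMM) genes, with p-values adjusted over all of them by the Benjamini-Hochberg method at 0.05, and jointly for the interaction, with limma-voom (limma 3.58.1) and 1 weight per site as an alternative added after seeing the data. DESeq2 1.42.0, other scalings and filters, other membership rules and leaving out each library were alternatives. The standard error is the absolute log2 fold change over the square root of F. The test was checked on simulated counts. Gene models and transcripts are GENCODE 29, and promoters RefSeq GRCh38.p14, matched by symbol.

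Members and lists were chosen with earlier results of these data known. Members named are the 8 highest and 6 lowest calls (4 existed) with arms apart, and the 6 most abundant per kilobase in NLS controls. Also named are the 6 most abundant at OMM, up to 6 calls at OMM or between sites by smallest p, and those of a list of studied loci. The 3 on either side of the count threshold complete them. Pairs with a coding neighbour and members not seen at OMM were named after their values were seen. Whether library numbers mark shared batches is not settled. The correlation of the number 1 minus number 3 differences between NLS arms was -0.03 over genes. It rests on a single difference per arm, so it cannot show whether libraries of the same number share a batch.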

Additional observations from a re-analysis of the deposited data

Results flagged for a closer look

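The effect of labelling differed between the nucleus and the outer mitochondrial membrane for 6 of 70 members by the interaction test over 8 libraries (edgeR quasi-likelihood test, Benjamini-Hochberg adjustment). That share was near the 8.14% of all tested genes called in either direction, of which 1.41% of all tested genes were more positive at NLS. The adjusted p was 0.011 for LINC00491, 0.0113 for LINC01515, 0.0126 for LINC00894, 0.0135 for LINC01876, 0.0215 for LINC01138 and 0.0274 for LINC00997. Each had the more positive log2 fold change at NLS, where both labelled libraries lay above both controls in 6 of 6. That fit shares 1 dispersion per gene between sites whose replicates varied unequally. With a weight for each site in limma-voom LINC00894 was no longer called (adjusted p = 0.0675) and the other 5 were, at 0.0189 to 0.0286. The site coincides with the library kit, so the 2 cannot be told apart. All 6 calls were lost without any of the 4 NLS libraries, and each was kept under DESeq2 and both other scalings.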

How the results depend on the processing

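With library size alone in place of TMM, 60 members were higher and 2 lower, the median was 2.22, and LINC00632 (0.43), LINC00665 (0.47) and LINC00674 (0.050) turned positive. The 35 members with at least 600 counts gave 26 higher, 2 lower, 20 at least 2-fold higher and a median of 1.25. The 50 LINC-named genes with at least 150 control counts, whatever their summed count, gave 32, 5, 26 and 1.06 in that order. The 36 members with no exon overlap gave 25, 4, 21 and 1.61, and of the 33 with overlap 28 were higher and 0 lower. The 48 with no exonic base inside a same-strand gene, a set chosen after seeing the data, gave 35, 4, 30 and 1.63. These sets hold fewer genes, and shares of all genes under the same rules are not given here. Leaving out each library gave 48 to 58 higher, 2 to 5 lower, 44 to 49 at least 2-fold higher and medians of 1.65 to 1.78, with 2 lower without either labelled library. The same step gave -0.19 to 0.024 for LINC00632, positive without control 1, and -0.29 to 0.22 for LINC00665, positive without control 1 and without labelled 1 (0.068). The replicate block, whose numbers are not known to pair the libraries, gave 55 higher and 4 lower. No block could be fitted at OMM, where the arms share 1 number. At OMM DESeq2 called 6 and no filter 1, and leaving out a library gave 0 to 3. For the difference between sites DESeq2 called 18, no filter 10 and limma-voom with site weights 5, and leaving out a library gave 0 to 17. Shares of all genes called by DESeq2 at OMM or for the difference between sites are not given here, so its counts have no background beside them. The cause of the changes between settings was not tested. Of 340 alternative values for the 34 named members, 318 kept their sign and side of the threshold. DESeq2, RLE factors, no filter and the fit without robust estimation gave 54 or 55 higher. Depth limits the low control levels of the largest rises and any count of 0 at OMM.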
